A study of Mus musculus with 30 samples.

Results

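Collagen-rich barcode columns were followed across the joint, skin, muscle and lung of mice with collagen-induced arthritis (CIA) and of healthy mice. They were chosen by the values themselves: a column was taken when Col1a1, Col1a2 and Col3a1, the genes of the type I and type III collagen chains, together made up at least 1% of its total. This rule found 343 of the 1904 columns in the 9 libraries of these 4 organs, out of 8282 columns in the whole series. Fibroblasts are the cells that build and remodel connective tissue. They secrete fibrillar collagens with the enzymes and small proteoglycans that order them into fibres, and in inflamed tissue they also release chemokines and matrix-degrading proteases. In the joint, lining fibroblasts make lubricin (Prg4), whereas chondrocytes and osteoblasts, which also make type I or type II collagen, form cartilage and bone.

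The data were Seq-Well single-cell RNA profiles of cryopreserved organs from male DBA1/J mice 8 to 12 weeks old. CIA mouse S1, with an arthritis score of 8, had been given 100 μg of bovine type II collagen in complete Freund's adjuvant and a booster on day 20 in incomplete adjuvant, and the healthy mice H3 and H6, with a score of 0, had been injected with PBS by the study's methods. Joint came from H3 and S1, and skin, muscle and lung from H6 and S1, so that each organ had 1 mouse per state. S1 joint was present as 2 libraries, a larger one whose title ends in 2CIA and a smaller one ending in CIA. The healthy joint and the S1 libraries of skin, muscle and lung ended in 2CIA, and the H6 libraries in CIA. State and title suffix therefore cannot be told apart in skin, muscle and lung, and no comparison between states or organs could be tested. The joint was digested with another collagenase type than skin, and skin with another than muscle, so organ and enzyme cannot be told apart either. Collagen immunization is a model of arthritis, and the labels give no gate or sort for fibroblasts.

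The deposited values were sums over each barcode and its 12 nearest neighbours, and are called units here. Levels were taken from the summed member columns of a library, as units per 1000000 units (UPM). Because of the smoothing several columns of a library carried the same profile, and columns are not independent cells. The members summed to 2703658 units in the larger CIA joint library but to only 128578 to 426913 units in each of the others, so that 1 unit was worth 0.370 UPM in the former and up to 7.78 UPM in CIA muscle. Libraries differed in how many rare genes they listed. Among detected genes, those that never exceeded 1 unit in any column made up 6.18% in the smaller CIA joint and 12.5% in the healthy joint, against 37.1% to 56.2% in the other 4 libraries with members. A gene listed at 0 in the first 2 may have been left out of the table, and no fold is given for a single gene against a 0. Medians over lists and over all genes include such genes through the pseudocount. Genes annotated as pseudogenes took 7.01% of member units in the larger CIA joint library and 9.30% to 17.3% in the others. No member barcode recurred in another library.

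Members were found in joint, skin and in the muscle of the CIA mouse. In the healthy joint 41 of 193 columns (21.2%, exact 95% interval 15.7 to 27.7) were members, and they held 15 distinct profiles. The larger CIA joint library had 203 of 606 columns (33.5%, exact 95% interval 29.7 to 37.4) with 70 profiles, and the smaller one 20 of 70 columns (28.6%, exact 95% interval 18.4 to 40.6) with 5 profiles. In skin, 20 of 158 columns (12.7%, exact 95% interval 7.91 to 18.9) were members in the healthy mouse and 40 of 150 columns (26.7%, exact 95% interval 19.8 to 34.5) in the CIA mouse, with 9 and 5 profiles. CIA muscle had 19 of 54 columns (35.2%, exact 95% interval 22.7 to 49.4) in 3 profiles. The intervals cover counting error over columns only and, like the limits below for shares of 0, treat columns as independent. Columns shared profiles through the smoothing, so these intervals and limits may be too narrow. Healthy muscle had 0 of 421 columns, which allows a share of up to 0.713%, and its most collagen-rich column reached 0.587%. Muscle of H6, unlike that of S1, had been treated with red-cell lysis buffer according to the study. Lung had 0 of 70 healthy columns and 0 of 182 CIA columns, which allow up to 4.29% and 1.65%. In the 21 blood, lymph node, spleen and thymus libraries the highest share among 6378 columns was 0.0181%.

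How much collagen a member carried differed between libraries. The median share of the 3 collagen genes was 1.84% in the healthy joint (range 1.20 to 3.72), 4.64% in the larger CIA joint library (up to 10.9) and 2.97% in the smaller one (up to 4.15). It was 1.17% in healthy skin (up to 4.39), 5.11% in CIA skin (up to 8.13) and 1.55% in CIA muscle (up to 1.57). Shares of 5% or more occurred in 91 columns of the larger CIA joint library and in 23 of CIA skin, and in no column of a healthy library. The 10 members nearest the threshold had 1.02% to 1.05%, and the 10 columns just outside it 0.923% to 0.972%. These shares are what the rule used and are given as a description.

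**Figure D1:**
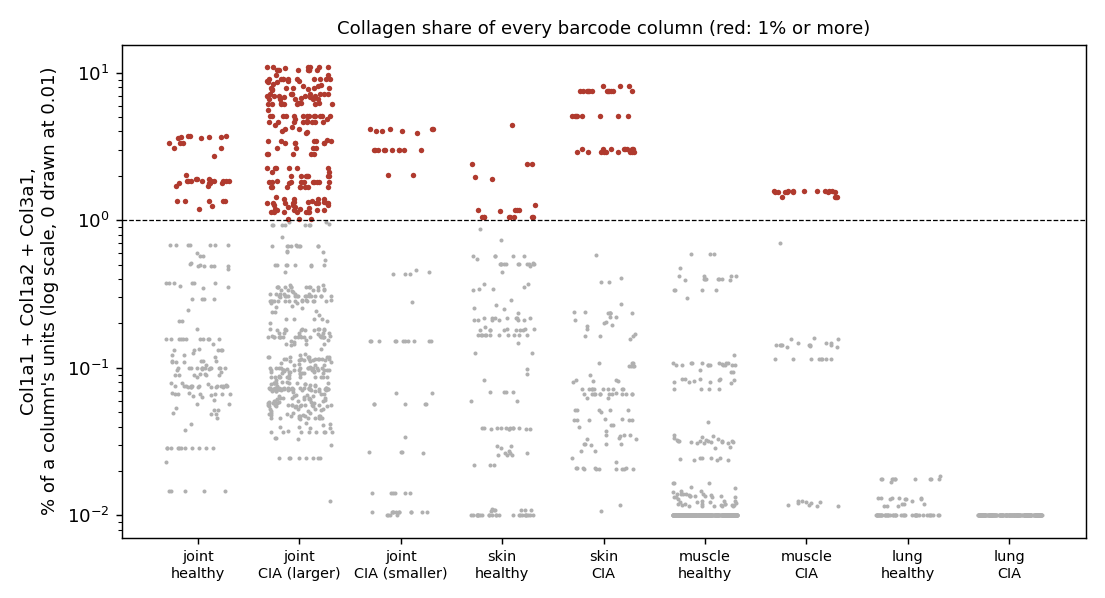
Share of Col1a1, Col1a2 and Col3a1 in the units of every barcode column (y axis, percent, log scale, 0 drawn at 0.01) in the 9 joint, skin, muscle and lung libraries. Each point is 1 column, red points are the 343 members at 1% or more, and the dashed line marks 1%. Points reach 10.9% in the larger CIA joint library, and no point of healthy muscle or of lung reaches the line.

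The members carried fibroblast genes beyond the 3 of the rule. A list of 21 general fibroblast genes summed to 79219.9 UPM in the healthy joint members against 16774 UPM in the other columns of that library. In the larger and smaller CIA joint libraries the sums were 44236 and 39436 UPM against 7809.9 and 6537 UPM. They were 18192 and 37922 UPM in healthy and CIA skin against 5579 and 3785 UPM, and 50273 UPM in CIA muscle against 10146 UPM. Decorin (Dcn), a small proteoglycan that binds collagen fibrils, ran from 4585 UPM in healthy skin to 25939.7 UPM in the healthy joint, and lumican (Lum) from 389 UPM in healthy skin to 5349.7 UPM in the smaller CIA joint library. Pdgfra, a growth factor receptor of fibroblasts, was at 630.1 UPM in the healthy joint, 89.9 UPM in the larger CIA joint library, 0 in the smaller one, and at 298, 306 and 576 UPM in healthy skin, CIA skin and CIA muscle.

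RNA of other cell types was present in the members and moved with organ and library. The 14 neutrophil markers summed to 6088, 30764 and 13859 UPM in the healthy, larger CIA and smaller CIA joint, but to 18.2 and 100.1 UPM in healthy and CIA skin and 1517 UPM in CIA muscle, with 13 of the markers listed at 0 in each skin library and 2 to 8 in joint. In the other columns of the 3 joint libraries they summed to 78819.9, 189204 and 110044 UPM. The 9 red-cell markers, mainly globins, stood at 9679, 20077 and 8813 UPM in the 3 joint libraries, at 0 and 46.9 UPM in healthy and CIA skin and at 27151 UPM in CIA muscle. Keratinocyte markers (14 genes) summed to 1354 UPM in healthy and 366 UPM in CIA skin, and ranged over the healthy skin members from 128 to 8273 UPM. Skeletal muscle markers (16 genes) reached 677 UPM in CIA muscle, where 11 of them were listed at 0, and 0 to 225 UPM elsewhere. Macrophage markers stayed at 1184 UPM or less, T cell markers at 291 UPM or less and B cell markers at 15.5 UPM or less. Endothelial markers stood at 94.0 to 786 UPM, pericyte and smooth muscle markers at 48.6 to 2132 UPM, Schwann cell markers at 0 to 1058 UPM and adipocyte markers at 94.0 to 606 UPM, and lung epithelial and mast cell markers reached 103 and 28.1 UPM. Within the larger CIA joint library, 39 of the 203 members held 5% or more of neutrophil markers and 31 held 5% or more of red-cell markers, up to 328590.0 and 228795 UPM. The part of this RNA in the results was not tested beyond leaving out the 39 columns with 5% or more of any such list, which left 164 members there and all members elsewhere. The number of genes past 2-fold between the summed CIA joint and the healthy joint was then 1390 instead of 1366.

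The balance of the collagen chains differed by organ. Col3a1 over Col1a1, as a ratio of units within a library, was 2.29 in the healthy joint, 1.10 and 2.01 in the larger and smaller CIA joint libraries and 2.33 in CIA muscle, but 0.626 in healthy and 0.397 in CIA skin. Col1a1 was at 3869.6 UPM in the healthy joint, 15161 in the larger and 8711 in the smaller CIA library, at 6145 UPM in healthy and 25316 UPM in CIA skin and at 3134 UPM in CIA muscle. Col1a2 was at 8693, 21558 and 7200.4 UPM in the 3 joint libraries, and Col3a1 at 8852, 16701 and 17546 UPM. Of these 6 libraries the ratio lay below 1 in the 2 of skin. These 3 genes chose the members, so their levels are a description.

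In the joint, the CIA members of both libraries carried more Saa3, Mmp3, Cthrc1 and Postn than the healthy members, and less Gsn and Dcn. Col10a1 and C7 were lower in the larger CIA library and listed at 0 in the smaller one. Genes compared had a mean of at least 50 UPM, ratios were log2 with a pseudocount of 25 UPM, and past 2-fold counted as called. Between the larger CIA library and the healthy joint, 452 of 3476 genes (13%) were called higher and 944 (27.2%) lower, with a median log2 ratio of -0.29. Of the lower genes 484 were pseudogenes or had no symbol, against 8 of the higher ones. With a trimmed mean of log ratios as scale the split was 1102 higher and 660 lower. For the smaller CIA library 27.6% of 3029 genes were higher and 33.9% lower (585 and 1152 with the trimmed mean), and 733 of the 1027 lower ones were listed at 0 there. In both CIA libraries at once, 265 of 3103 genes (8.54%) were higher and 410 (13.2%) lower, of which 167 were pseudogenes or unnamed, while 125 were called in opposite directions. With the trimmed mean 345 of 3415 were higher in both and 337 lower.

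The gene at the head of the higher group was Saa3, a serum amyloid A protein made locally in inflamed tissue, which was at 0 UPM in the healthy joint, 503 in the larger and 23907 in the smaller CIA library. Mmp3, stromelysin-1, a protease that cleaves proteoglycans and activates collagenases, was at 136 UPM in the healthy joint, 2064 in the larger and 27132 in the smaller CIA library, log2 ratios of 3.70 and 7.40. Both CIA libraries lay above the healthy joint for either gene, and the smaller lay above the larger. Mmp13, an interstitial collagenase, was at 0 UPM in the healthy joint, 329.9 in the larger and 1149 in the smaller CIA library. Haptoglobin (Hp), a haemoglobin-binding acute-phase protein, was at 18.7 UPM in the healthy joint, 235 in the larger and 5949.7 in the smaller CIA library. Saa3 was the acute-phase gene and Mmp3 the protease with the largest log2 ratio among the 10 genes named as higher, and the 200 bases before their transcription starts are shown, from RefSeq promoters of build GRCm38.p6, 5′ to 3′ on the gene's strand. The Saa3 stretch is chr7:46715677-46715876 (minus strand) and the Mmp3 stretch chr9:7445622-7445821 (plus strand), and capitals mark matches to TGANTCA, the core of AP-1 sites, or to TTGCNNAA, the core of C/EBP sites, on either strand.
Saa3: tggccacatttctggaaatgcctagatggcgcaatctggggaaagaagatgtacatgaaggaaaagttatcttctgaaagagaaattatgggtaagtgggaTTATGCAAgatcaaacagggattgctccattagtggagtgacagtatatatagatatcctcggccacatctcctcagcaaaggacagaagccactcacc
Mmp3: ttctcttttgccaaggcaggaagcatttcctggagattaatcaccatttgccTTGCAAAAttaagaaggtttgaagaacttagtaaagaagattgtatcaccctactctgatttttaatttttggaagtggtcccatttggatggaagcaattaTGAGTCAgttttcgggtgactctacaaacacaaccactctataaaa
Saa3 held 1 match to TTGCNNAA, 99 to 92 bases before the start, and Mmp3 held 1 match to each motif, TGANTCA at 46 to 40 and TTGCNNAA at 148 to 141 bases before it. Among 32851 promoters of the same table and length 5.48% held TGANTCA and 7.47% held TTGCNNAA. Neither stretch matched a loose NF-kB core, GGG and CC with 5 free bases between, found in 41.4% of them, and the motifs do not overlap each other here. A match describes letters and not a bound site.

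Other named higher genes encoded secreted and surface proteins. Cthrc1, a secreted protein of matrix-producing fibroblasts, was at 0 UPM in the healthy joint, 942 in the larger and 607 in the smaller CIA library. Periostin (Postn), a matricellular protein that binds collagen, was at 23.4 UPM in the healthy joint, 1095 in the larger and 1547 in the smaller CIA library, and thrombospondin 4 (Thbs4), a tendon and muscle matrix protein, at 30.5 UPM in the healthy joint, 570.0 in the larger and 1815 in the smaller CIA library. For these 3 genes both CIA libraries stood above the healthy joint by more than 10-fold or against a 0. Col12a1, a collagen that decorates fibrils, was at 0 UPM in the healthy joint, 521 in the larger and 694 in the smaller CIA library. Clec11a, a bone growth factor, was at 0 UPM in the healthy joint, 388 in the larger and 361 in the smaller CIA library, and Thy1, a surface glycoprotein of sublining synovial fibroblasts, at 0 UPM in the healthy joint, 324 in the larger and 383 in the smaller CIA library. Of the list for TGF-beta response and myofibroblasts, which holds Cthrc1 and Postn too, 11 of 16 genes compared were higher in the larger CIA library and 1 lower, with a median of 2.07 where all genes had -0.29. In the smaller CIA library 6 of 9 were higher and 1 lower (median 1.19 against 0.01). The counts with the trimmed mean were 15 and 0 of 19 in the larger and 4 and 2 of 9 in the smaller. Of the 21 listed genes 8 were at 0 in the healthy joint, and such a gene could pass the level filter only through the CIA library. Tropomyosin 1 (Tpm1), a contractile-filament protein, was at 53.9 UPM in the healthy joint, 495 in the larger and 1294 in the smaller CIA library. Pericyte and smooth muscle markers moved with this list, at 77.3, 2132 and 202 UPM, and their part in it was not tested.

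Collagens outside the rule could be followed mainly in the larger CIA library. Of the 16 fibrillar and fibril-associated collagens in the table, 13 of 16 compared were higher in the larger CIA library and 1 lower (median 1.68), against 13% and 27.2% of all genes. The 3 at 0 in the healthy joint could pass the level filter only through the CIA library. Its members also had more of the rule's collagens, a median share of 4.64% against 1.84%. The cartilage list moved with these collagens, with 12 of 15 higher and 1 lower, though 9 of its 17 genes were at 0 in the healthy joint. The part of either was not tested. In the smaller one 3 of 12 were higher and 8 lower (2 and 8 of 12 with the trimmed mean), but 12 of the list were listed at 0 there, so the list gives no direction. Col5a2, which sets fibril diameter together with type I collagen, was at 686 UPM in the healthy joint, 1734 in the larger and 1200.1 in the smaller CIA library. Col6a1, of microfibrillar collagen VI, was at 213 UPM in the healthy joint, 799 in the larger and 0 in the smaller CIA library, and Col11a1 at 159 UPM in the healthy joint, 1176 in the larger and 0 in the smaller CIA library. For collagen processing and crosslinking, 6 of 17 genes were higher and 3 lower in the larger library (median 0.33), or 11 and 1 of 20 with the trimmed mean (median 1.10), while 14 of the 20 in the table were listed at 0 in the smaller. Lysyl oxidase (Lox), which crosslinks collagen, was at 246 UPM in the healthy joint, 529 in the larger and 737 in the smaller CIA library, and Plod2, a lysyl hydroxylase, at 51.5 UPM in the healthy joint, 792 in the larger and 0 in the smaller CIA library. Osteonectin (Sparc), a collagen chaperone of the matrix, was at 9632 UPM in the healthy joint, 18097 in the larger and 7114 in the smaller CIA library. In the larger CIA library Sparc and Col11a1 were higher in the 22 columns with at least 1000 UPM of Col2a1. They averaged 44702 and 4786 UPM there, and 10509 and 315 UPM in the other members. Of the adhesive and matricellular proteins, 9 of 23 were higher and 5 lower in the larger library, or 13 and 3 of 24 with the trimmed mean, and 17 of the 25 in the table were listed at 0 in the smaller. Fibronectin (Fn1) was at 899 UPM in the healthy joint, 2136 in the larger and 976 in the smaller CIA library.

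The genes that stood lower in both CIA libraries included Gsn, among the most abundant genes of the healthy members. Gelsolin (Gsn), an actin-severing protein, was at 23576 UPM in the healthy joint, 1506 in the larger and 1554 in the smaller CIA library, log2 ratios of -3.95 and -3.90. Gsn ranged from 18676 to 27649 UPM over the 41 healthy member columns, and the highest CIA joint member column had 5849.8 UPM. These columns share smoothed signal and come from 1 mouse per state. How many other genes show such a gap was not counted. Decorin was lower too, at 25939.7 UPM in the healthy joint, 6398 in the larger and 9094 in the smaller CIA library (log2 ratios of -2.02 and -1.51). Col10a1, the collagen of hypertrophic cartilage, was at 647 UPM in the healthy joint, 0 in the larger and 0 in the smaller CIA library, and in the healthy joint 9 columns in 4 profiles held 2206 to 2547 UPM while the others held 0 to 88.8 UPM. C7, a terminal complement component, was at 534 UPM in the healthy joint, 32.2 in the larger and 0 in the smaller CIA library, and Penk, the enkephalin precursor, at 283 UPM in the healthy joint, 6.29 in the larger and 0 in the smaller CIA library. Myocilin (Myoc), a secreted glycoprotein, was at 473 UPM in the healthy joint, 23.7 in the larger and 0 in the smaller CIA library, and Inmt, a methyltransferase also used as a lung fibroblast marker, at 293 UPM in the healthy joint, 2.59 in the larger and 0 in the smaller CIA library. Retnla, an alternative-activation product of macrophages that stromal cells can also make, was at 419 UPM in the healthy joint, 12.6 in the larger and 0 in the smaller CIA library. The 10 lowest genes also held Morc3, a chromatin ATPase, and the pseudogenes Gm16218 and Gm6564. Of the general fibroblast list, 1 of 19 compared genes were higher and 6 lower in the larger library (median -0.01, which turned to 0.54 with 4 higher and 5 lower with the trimmed mean), and 4 and 7 of 19 in the smaller one (median -0.44), shares of lower genes near the 27.2% and 33.9% of all genes.

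**Figure D2:**
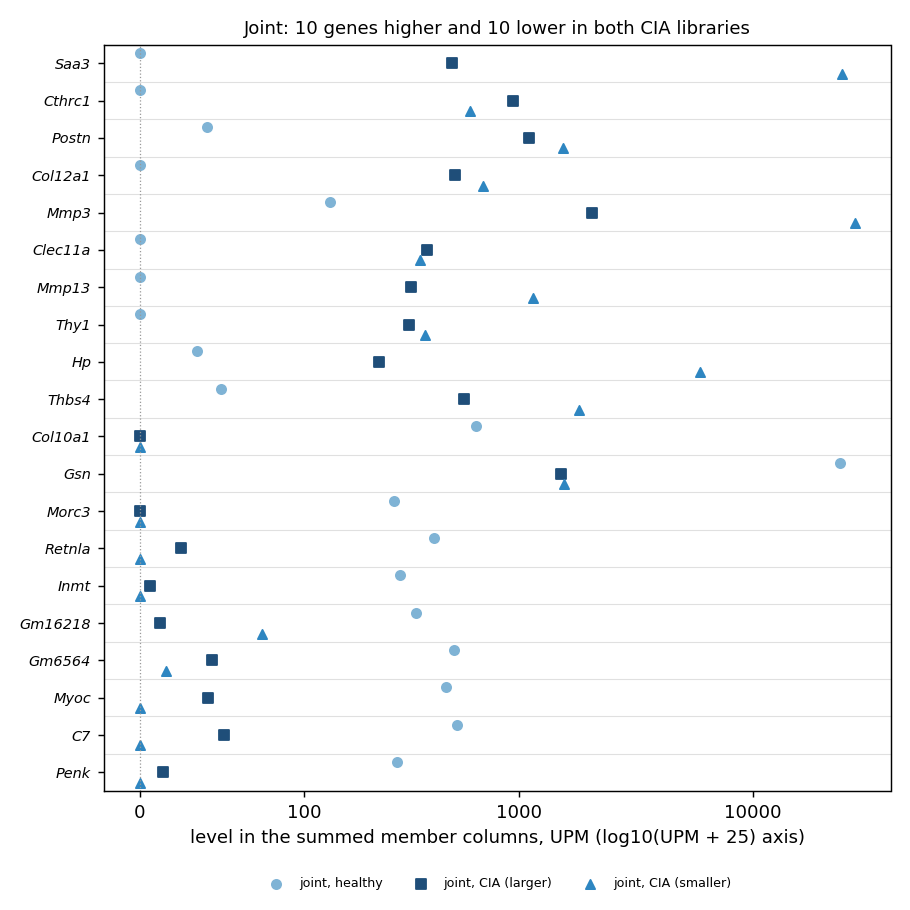
Level in the summed joint members (x axis, UPM on a log10(UPM + 25) scale) of the 10 genes highest and the 10 lowest in CIA over healthy among those past 2-fold in each CIA library. Circles are the healthy joint, squares the larger and triangles the smaller CIA library, each 1 library without replicates. The upper 10 genes lie at 136 UPM or less in the healthy joint and the lower 10 at 276 UPM or more.

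Proteases and their inhibitors did not move as one group. Of 12 matrix proteases compared, 4 were higher and 3 lower in the larger CIA library (median 0.03; 6 and 2 of 13 with the trimmed mean), against 13% and 27.2% of all genes, and in the smaller 4 and 3 of 11, with a median of 0.14 that turned to -0.27 with the trimmed mean, against 27.6% and 33.9%. Mmp14, a membrane-bound collagenase, was at 110.1 UPM in the healthy joint, 381 in the larger and 600.0 in the smaller CIA library, and Adamts5, an aggrecanase, at 536 UPM in the healthy joint, 149 in the larger and 0 in the smaller CIA library. Among the inhibitors, Timp1 was at 204 UPM in the healthy joint, 964 in the larger and 3615 in the smaller CIA library, while Cst3, cystatin C, was at 11953 UPM in the healthy joint, 4221 in the larger and 3318 in the smaller CIA library. Serpinf1, PEDF, was at 1993 UPM in the healthy joint, 727 in the larger and 918 in the smaller CIA library. Timp1 therefore lay on the same side as Mmp3 and Mmp13, and Cst3 and Serpinf1 on the other. In all, 1 of 9 inhibitors were higher and 5 lower in the larger library, or 2 and 2 of 9 with the trimmed mean, where 1102 and 660 of 4075 genes were called. In the smaller library 2 were higher and 5 lower of 9, or 2 and 5 of 9 with the trimmed mean.

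The 2 joint libraries of mouse S1 share mouse, organ and state, and show how far libraries differed apart from these. Of 2724 genes compared, 960 (35.2%) lay past 2-fold higher in the smaller library and 662 (24.3%) lower (386 and 875 with the trimmed mean). These 1622 genes compare with 1396 past 2-fold between the larger library and the healthy joint and 1864 between the smaller one and the healthy joint. Of the acute-phase and inflammation list 5 of 14 genes were higher in the smaller library and 1 lower, near the share of all genes, and 4 and 3 with the trimmed mean (median -0.25). Single genes with large ratios included several inflammatory ones. Cxcl5, a neutrophil-attracting chemokine, was at 2465 UPM there and 8.51 in the larger library, and Saa1 at 766 and 9.99 UPM. Ccl7, a monocyte chemokine, was at 4215 and 338 UPM, Cxcl14 at 7388 and 1011 UPM, and Sod2, mitochondrial superoxide dismutase, at 933 and 65.8 UPM. Lubricin (Prg4) was at 3429 UPM in the healthy joint, 1861 in the larger and 7200.4 in the smaller CIA library, so the healthy joint lay between the CIA libraries. Among the genes with the largest ratios the other way were skeletal ones. Col2a1, the main cartilage collagen, Ibsp, bone sialoprotein, and Spp1, osteopontin, were at 3333, 3179.8 and 4135 UPM there, and at 0, 0 and 7.23 UPM in the smaller library. Msmp and the pericyte gene Rgs5 stood at 1575 and 1518 UPM and were listed at 0 in the smaller library.

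The 203 members of the larger CIA joint library fell into groups of columns by leading genes. The groups below take columns with at least 1000 UPM of 1 gene, were picked from the values, and are described without a test, since smoothing gives neighbouring columns shared units. Col2a1 reached that level in 22 columns, and 20 of them also had Ibsp, 20 Spp1 and 20 Comp, a cartilage and tendon matrix protein. These columns averaged 16565 UPM of Col2a1 and 15277 UPM of Ibsp, against 186 and 181 UPM in the other 181 members. They also averaged 3407 UPM of osteomodulin (Omd), against 77.5 UPM. Sparc and Col11a1 were higher in them as given above, and Col3a1 was lower in them, at 9152 against 15607 UPM. Cartilage and bone genes thus shared 20 columns, which met the collagen rule although these genes are known from chondrocytes and osteoblasts, and the label fibroblast does not describe them. The other 2 Col2a1 columns had 5% or more of red-cell markers and no Ibsp at 1000 UPM.

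Cthrc1 reached 1000 UPM in 76 columns, with a median collagen share of 6.11%. Of these, 58 also had Postn and 52 Prg4, and none had Col2a1 or Ibsp at that level. Mfap5, a microfibril protein, averaged 2061 UPM in them and 533 UPM in the other members, and Mmp13 619 and 79.7 UPM. Has1, a hyaluronan synthase, averaged 355 and 42.5 UPM. All 35 columns with Thbs4 at that level lay within those of Cthrc1, and all of them had Mmp3 too. Saa3 reached 1000 UPM in 26 columns, each of which also had Mmp3 and Prg4. These Saa3 columns averaged 5369 UPM of Mmp3 and 3070.5 UPM of Prg4, against 1005 and 1420.3 UPM in the other members. Mmp3 itself was broader, with 86 columns, of which 26 carried Saa3. In the larger library Saa3 at that level thus came with Mmp3 and the lining gene Prg4 in 26 of its 203 members. The other Mmp3 columns had less than 1000 UPM of Saa3.

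Rgs5, a regulator of G-protein signalling found in pericytes, reached 1000 UPM in 58 columns, of which 25 also had the contractile gene Tagln and 25 Acta2 at that level. The 39 of them below 5% of red-cell markers averaged 9226 UPM of Rgs5, 769.5 UPM of smooth muscle myosin (Myh11) and 1480.5 UPM of the cytokine Il6, against 322, 28.2 and 117 UPM in the other members. Their median collagen share was 1.98%. Tagln and Acta2, which with Rgs5 are known from mural cells, were at that level in 25 of these 39 columns, and 7 others carried Cthrc1, so that the group did not hold 1 kind of profile. The other 19 Rgs5 columns were among the 31 with 5% or more of red-cell markers, all of which had collagen shares of 1.44% or less. Neutrophil RNA was concentrated in the columns with the least collagen. In the 66 columns at 1 to 2% collagen the median sum of neutrophil markers was 100929 UPM, in the 46 at 2 to 5% it was 13228 UPM and in the 91 at 5% or more 16676 UPM. Dcn went the other way, with medians of 1067, 6637 and 8265 UPM. All of these are shares of 1 column total and so depend on each other, and the 66 columns held 21 distinct profiles.

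**Figure D3:**
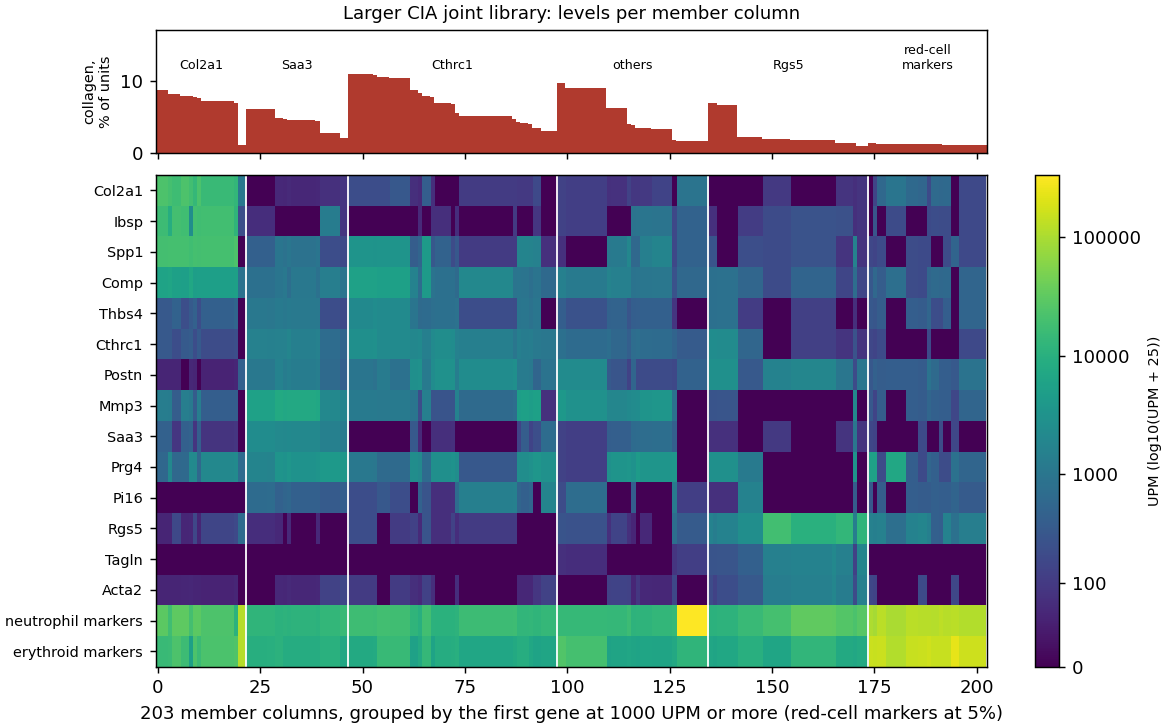
Levels in the 203 member columns of the larger CIA joint library (x axis, 1 column each; colour, UPM on a log10(UPM + 25) scale) for 14 genes and for the summed neutrophil and erythroid markers, with each column's collagen share in percent above. Columns are grouped by the first of Col2a1, red-cell markers (5% of units), Rgs5, Saa3 and Cthrc1 that they carry at 1000 UPM or more. Col2a1, Ibsp and Spp1 light up together at the left, Saa3 with Mmp3 and Prg4 beside them, and the red-cell columns at the right have collagen shares of 1.44% or less.

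In the healthy joint the 15 profiles also formed sets. The 6 profiles with the most collagen (2.72% to 3.72%, 14 columns) had Prg4 at 686 to 1072 UPM and the chemokine Cxcl14 at 2059 to 3296 UPM. They also held Ibsp at 1601 to 1923 UPM, where the other profiles were at 0, so that a bone gene marked the most collagen-rich healthy columns too. Of the other 9 profiles, 1 profile of 10 columns had Prg4 at 943 UPM, and the remaining 8 had 4350.4 to 6658 UPM with 317 to 822 UPM of Cxcl14. Prg4 and Cxcl14 thus marked different healthy profiles. In the smaller CIA library they did not separate, since all 5 profiles held 2539 to 8391 UPM of Prg4 and 3831 to 9306 UPM of Cxcl14.

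In skin, most chemokine and complement genes compared were called higher in the CIA members, some of them, such as C1s1, against a 0 in healthy skin. Of 3641 genes compared, 900 (24.7%) were higher and 906 (24.9%) lower (median -0.09), or 614 and 1049 with the trimmed mean. Of the higher genes 205 were listed at 0 in healthy skin, and of the lower ones 285 in CIA skin. Ccl8, a monocyte chemokine, was at 121 UPM in healthy and 1985 UPM in CIA skin, a log2 ratio of 3.78. Mfap4, a microfibril-associated protein, was at 0 UPM in healthy and 922 UPM in CIA skin, and Igfbp5, an insulin-like growth factor binding protein, at 6.07 UPM in healthy and 635 UPM in CIA skin. C1s1, the complement protease C1s, was at 0 UPM in healthy and 388 UPM in CIA skin, and Timp1 at 0 UPM in healthy and 322 UPM in CIA skin. Saa3 was at 0 UPM in healthy and 547 UPM in CIA skin, and a single profile of 8 columns carried it at 2322 UPM while the other 4 profiles held 0 to 133 UPM. That profile also had Prg4 at 1711 UPM, Cxcl14 at 3056 UPM and Cxcl5 at 856 UPM, where the others had 0 of Prg4 and Cxcl5 and 113 to 258 UPM of Cxcl14. The 10 highest genes further held Dqx1, Dnajc21, Nr1d2 and Ndufa4l2.

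Of the fixed lists, some stood above the 24.7% of all genes called higher in CIA skin and others near it. Of the chemokines and cytokines 10 of 14 higher and 1 lower (median 1.85) were counted, of the complement genes 8 of 10 higher and 1 lower (median 2.46), and of the collagen processing genes 8 of 14 higher and 0 lower (median 1.16). Elastic fibre genes had 6 of 11 higher and 2 lower (median 1.23), and the TGF-beta and myofibroblast list 9 of 15 higher and 2 lower (median 2.09). Pericyte and smooth muscle markers moved with the latter, at 48.6 UPM in healthy and 535 UPM in CIA skin members, and their part in it was not tested. For the interferon and antigen presentation list the count was 8 of 11 higher and 0 lower (median 1.26), or 5 and 1 of 10 with the trimmed mean. The medians of these 6 lists stayed above 0 with the trimmed mean, at 0.94 to 2.41. In healthy skin 8 of the 24 chemokine and cytokine genes and 6 of the 12 complement genes in the table were listed at 0. So were 4 of 20 collagen processing, 3 of 14 elastic fibre, 6 of 21 TGF-beta and 9 of 20 interferon genes. Such a gene could pass the level filter only through CIA skin and was then called higher. Adhesive and matricellular genes had 7 of 15 higher and 4 lower (median 0.01), matrix proteases 4 of 12 higher and 2 lower (median 0.45) and protease inhibitors 3 of 9 higher and 2 lower (median 0.55), with trimmed medians of -0.20, 0.21 and -0.25. Ccl2 and Ccl7, monocyte chemokines, were at 3079 UPM in healthy and 5759 UPM in CIA skin and at 1469 UPM in healthy and 3217 UPM in CIA skin. Cathepsin K (Ctsk), a collagen-degrading protease, was at 170.0 UPM in healthy and 1873 UPM in CIA skin. Dcn was at 4585 UPM in healthy and 13798 UPM in CIA skin, and Lum at 389 UPM in healthy and 4058 UPM in CIA skin. Of the 20 healthy skin members 16 lay at 1 to 2% collagen, while all 40 CIA skin members lay at 2.93% or more. Healthy profiles at 4.39% and 2.40% collagen had Dcn at 16773 and 14025 UPM. The part of the collagen share in the skin ratios was not tested. Beta-2 microglobulin (B2m) was at 789 UPM in healthy and 2995 UPM in CIA skin. Not every inflammatory gene followed. Mmp3 was at 8307 UPM in healthy and 7319 UPM in CIA skin (log2 ratio -0.18), and Cxcl1, a neutrophil chemokine, at 3832 UPM in healthy and 1888 UPM in CIA skin (log2 ratio -1.01). The acute-phase list had 3 of 13 higher and 1 lower (median 0.24), and a median of 0.01 with the trimmed mean.

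Among the lower genes in CIA skin several belong to other cells. H2-Aa, an MHC class II chain of antigen-presenting cells, was at 947 UPM in healthy and 28.1 UPM in CIA skin, Cd207, langerin of Langerhans cells, at 364 UPM in healthy and 0 UPM in CIA skin and Selp, P-selectin of endothelium and platelets, at 510.1 UPM in healthy and 0 UPM in CIA skin. Healthy skin members also held more keratinocyte marker RNA, as given above. The part of such RNA in these differences was not tested. Igfbp3, an insulin-like growth factor binding protein, was at 468 UPM in healthy and 0 UPM in CIA skin. Eif4ebp1, Rraga, Dnttip2, N4bp2l2, Polr2k and the pseudogene Gm8203 made up the rest of the 10 lowest. Dkk2, a WNT antagonist of the dermis, was at 395 UPM in healthy and 28.1 UPM in CIA skin. Healthy skin members numbered 20 in 9 profiles, and Dcn spanned 271 to 16773 UPM among them and 5215 to 22524 UPM among the 40 CIA members.

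Chemokine and acute-phase genes had different patterns over the 6 libraries. Ccl2 was highest in CIA skin (5759 UPM), then the smaller CIA joint (3362) and healthy skin (3079), with 918 UPM in the healthy and 673 UPM in the larger CIA joint and 93.3 UPM in CIA muscle. Cxcl12, a chemokine that retains leukocytes in tissue, was highest in the smaller CIA joint (1909 UPM) and CIA muscle (1151 UPM). Il6 was at 220.2 UPM in the healthy joint, 317 in the larger and 904 in the smaller CIA library and at 72.9 UPM in healthy and 419 UPM in CIA skin. For chemokines and cytokines, 4 of 14 genes compared were higher and 2 lower in the larger CIA joint than in the healthy joint (median 0.22; 6 and 1 of 14 with the trimmed mean), and 7 and 2 of 10 in the smaller (median 1.88). The acute-phase list had 5 higher and 1 lower of 15 (median 0.28; 7 and 0 of 16 with the trimmed mean) and 9 and 1 of 14 (median 1.24). Over all genes 13% were higher and 27.2% lower in the larger library, and 27.6% and 33.9% in the smaller. With the trimmed mean the smaller library had 6 higher and 2 lower of 10 chemokines (median 1.48) and 5 and 2 of 14 acute-phase genes (median 0.89).

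Complement genes were counted in joint as well. Of them 1 of 10 were higher and 5 lower in the larger CIA joint library (median -1.02; 3 and 4 of 11 and a median of -0.16 with the trimmed mean), where 13% and 27.2% of all genes were called. In the smaller 1 and 4 of 9 were (median -0.80), near the 33.9% of all genes called lower, and 7 of the 12 listed genes were at 0 there. CIA skin had 8 higher and 1 lower, but 6 of the 12 listed genes were at 0 in healthy skin. C1ra, the protease C1r, was at 494 UPM in the healthy joint, 175 in the larger and 0 in the smaller CIA library and at 48.6 UPM in healthy and 356 UPM in CIA skin. Serping1, the C1 inhibitor, was at 1914 UPM in the healthy joint, 446 in the larger and 1569 in the smaller CIA library and at 413 UPM in healthy and 816 UPM in CIA skin. The difference between organs was not tested. The MHC class I genes H2-K1 and H2-D1 were at 408 and 1616 UPM in the healthy joint, 913 and 2409 UPM in the larger and 506 and 1663 UPM in the smaller CIA library. In the interferon and antigen presentation list 3 of 11 genes were higher and 0 lower in the larger, and 4 and 0 of 11 in the smaller library, where over all genes 13% and 27.6% were higher. With the trimmed mean these were 7 and 0 of 11 and 3 and 1 of 11. Leukocytes also express these genes, and their sum in the other joint columns was 6544, 12850.5 and 9448 UPM against 5495, 8606 and 7779 UPM in the members.

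**Figure D4:**
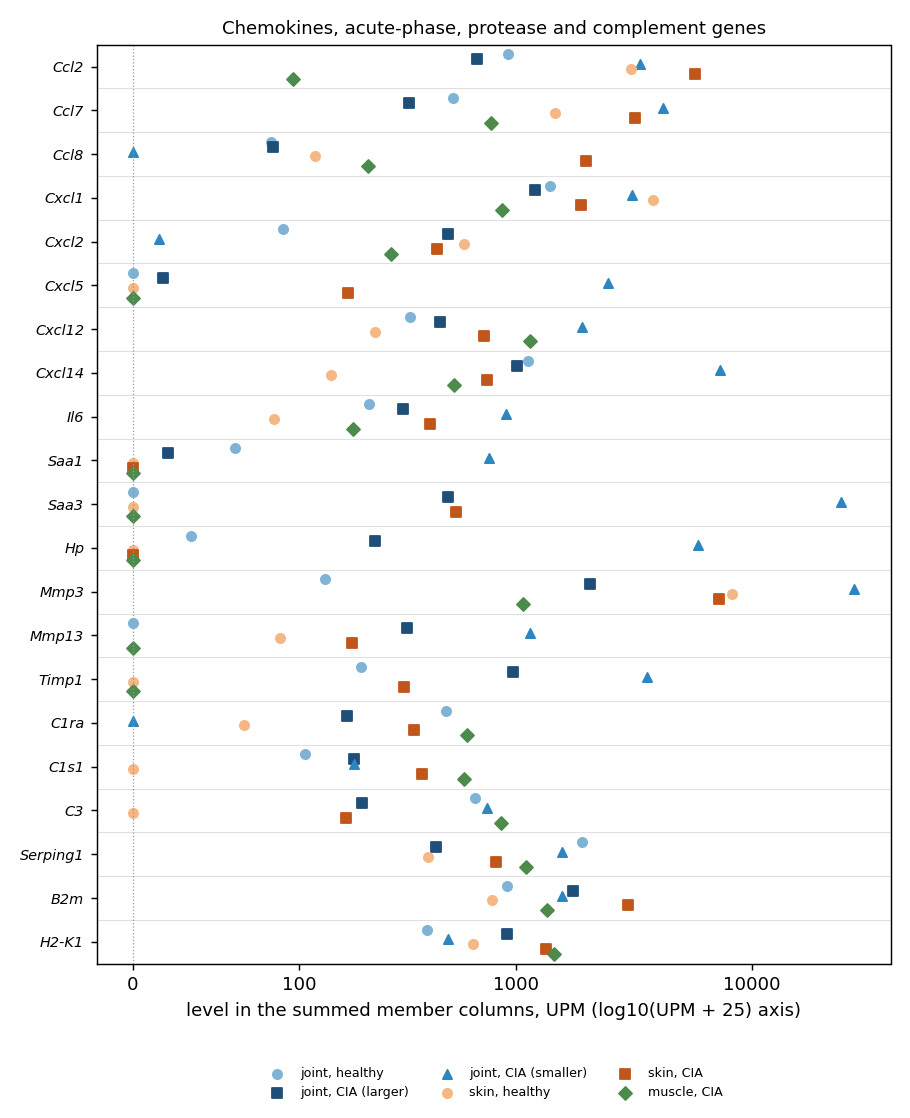
Levels in the summed members (x axis, UPM on a log10(UPM + 25) scale) of 21 chemokine, acute-phase, protease, complement and MHC class I genes in the 6 libraries with members, 1 library per point and no replicates. Blue marks joint, orange skin and green muscle, circles are healthy and squares, triangles and diamonds CIA. The smaller CIA joint library has the highest Saa3 (23907 UPM), Mmp3 (27132 UPM) and Hp (5949.7 UPM), and CIA skin the highest Ccl8 (1985 UPM) and B2m (2995 UPM).

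Joint and skin members differed in skeletal genes. Within mouse S1, 521 of 3509 genes (14.8%) were higher in the larger joint library than in skin and 999 (28.5%) lower (1500 and 568 with the trimmed mean), and between the healthy mice 27.2% of 3701 were higher and 26.6% lower (761 and 1132). The median log2 ratio over all genes was -0.38 and -0.08. Both comparisons called 242 of 3579 genes (6.76%) higher in joint and 268 (7.49%) lower, and 297 in opposite directions. The S1 and the healthy comparison share no library, but the healthy joint and skin came from different mice. The genes that stood past 2-fold above both other organs in S1 and above skin among healthy mice numbered 95 for joint and 172 for skin.

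Matrix proteins of cartilage and tendon stood among the joint genes. Comp was at 953 UPM in the healthy joint, 1999 in the larger and 636 in the smaller CIA library, and at 0, 125 and 0 UPM in healthy skin, CIA skin and CIA muscle. Fibromodulin (Fmod), a proteoglycan of tendon and cartilage, was at 417 and 1016 UPM in the healthy and larger CIA joint and listed at 0 in the other 4 libraries, and Ibsp was at 459 and 3179.8 UPM with the same zeros. Cartilage genes were higher in joint than in skin for 14 of 14 compared in S1 and 7 of 8 among healthy mice. Tendon genes were higher for 7 of 8 and 5 of 6, and the medians were 3.64, 2.64, 3.41 and 4.18 in that order. Of the 17 cartilage genes, however, 15 were listed at 0 in CIA skin and 14 in healthy skin. Of the 10 tendon genes 6 and 8 were. Such a gene could pass the level filter only through joint and was then called higher, so these counts largely follow from the filter. S100a8, S100a9, Camp, Ngp and Ltf, which are granule or cytosolic proteins of neutrophils, were 5 of the 10 leading joint genes, and moved with the neutrophil markers given above. S100a9 was at 1189.9 UPM in the healthy joint, 7349 in the larger and 1460.3 in the smaller CIA library, at 0 in both skin libraries and at 148 UPM in muscle. Prss23, a serine protease, and Rbp4, retinol binding protein, completed the list, at 216 and 169 UPM in the healthy and 173 and 159 UPM in the larger CIA joint.

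The skin genes included transcription and retinoid genes known from dermis. Crabp1, a retinoic acid binding protein of dermal fibroblasts, was at 261 UPM in healthy and 156 UPM in CIA skin and at most 2.96 UPM elsewhere. Twist2, a dermal transcription factor, was at 121 UPM in healthy and 169 UPM in CIA skin, with at most 4.44 UPM elsewhere. Igfbp2 was at 279 UPM in healthy and 632 UPM in CIA skin and at 0 in joint and muscle. Nrp2, a semaphorin and VEGF co-receptor, was at 139.7 UPM in healthy and 300.2 UPM in CIA skin with at most 34.0 UPM elsewhere, and Slc26a7, an anion transporter, at 449 UPM in healthy and 113 UPM in CIA skin. Jade3, Eml4, Foxn2, Atp8b1 and Ap1g1 were the other leading skin genes, at 97 to 344 UPM in skin. The dermal list as fixed did not separate the organs in S1, with 2 of 8 genes higher in joint and 2 lower (median -0.17, turning to 1.07 with the trimmed mean), while among healthy mice 0 of 7 were higher and 5 lower. Mmp3 was at 8307 UPM in healthy skin and 136 UPM in the healthy joint, but skin lay between the 2 joint libraries in S1.

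CIA muscle members, 19 columns in 3 profiles, had Gsn and Dcn among their abundant genes. Dcn was at 13828 UPM, near the 13798 UPM of CIA skin. Gsn was at 15321 UPM in muscle and 23576 UPM in the healthy joint, and at 1269 to 1554 UPM in the other 4 libraries. The 3 muscle profiles had 9877, 10786 and 24034 UPM. Smoc2, a matricellular protein of fibro-adipogenic progenitors, the resident fibroblasts of muscle, was at 1539.9 UPM in muscle and 412 UPM or less elsewhere, and Ogn, osteoglycin, at 2668 and 792 UPM or less. Of the fibro-adipogenic list 6 of 11 genes were higher in muscle than in the larger joint library and 0 lower (median 2.39), and 7 and 2 of 13 against skin (median 2.18), where over all genes 1613 of 3705 and 1404 of 3833 were higher, with medians of 0.74 and 0.24. With the trimmed mean 5 of 9 and 7 of 13 of the list were higher (medians 1.18 and 1.80), against 261 of 2547 and 1030 of 3569 of all genes (medians -0.85 and -0.14). Against both, 918 of 3715 genes (24.7%) were higher in muscle, of which 247 were pseudogenes or unnamed, and 782 (21%) lower. Against the larger joint library alone the split turned with the scale, from 1613 higher and 653 lower to 261 and 1180.

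The 10 leading muscle genes mixed sources. Ttn and Trdn, titin and triadin of muscle fibres, were at 646 and 428 UPM and listed at 0 in the other 5 libraries, and Hbb-bh1, an embryonic-type globin, was at 1268 UPM with at most 27.4 UPM elsewhere. These moved with the skeletal muscle and red-cell markers given above, and the part of fibre and red-cell RNA in the comparison was not tested. Abca8a, a transporter of fibro-adipogenic cells, was at 459 UPM in muscle and 30.5 UPM in the healthy joint. C7 was at 708 UPM in muscle, 534 UPM in the healthy joint and 72.9 UPM or less in the other 4 libraries. Mir6240, A330069E16Rik, Akap8, Gm15549 and 1 gene without a symbol completed them.

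**Figure D5:**
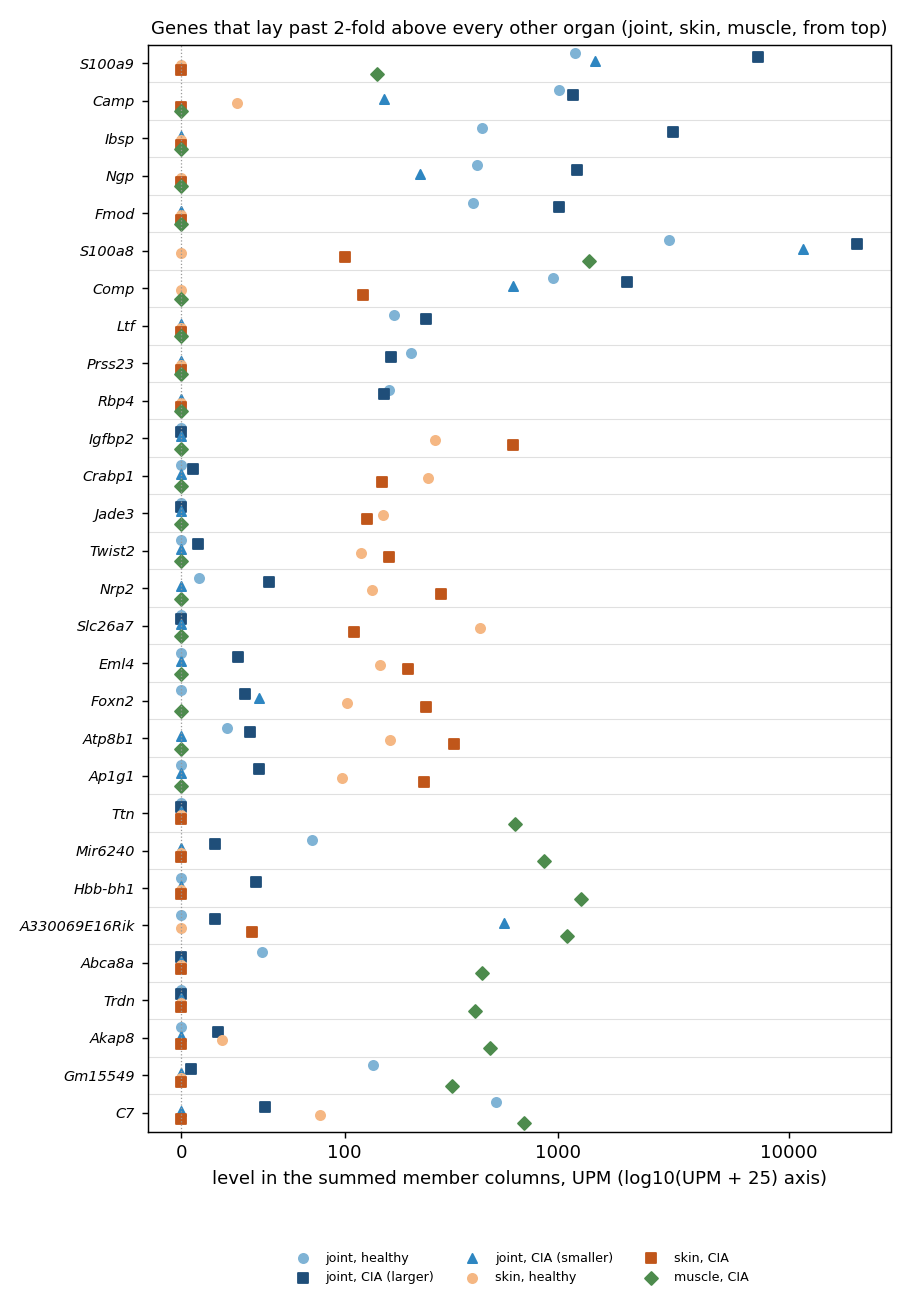
Levels in the summed members (x axis, UPM on a log10(UPM + 25) scale) of the leading genes of joint (top 10), skin (next 10) and muscle (last 9) in the 6 libraries, 1 library per point and no replicates, with colours and shapes by organ and state as in the legend. Muscle genes were ranked in mouse S1 only. The skin genes lie at 97 UPM or more in both skin libraries. C7 is also at 534 UPM in the healthy joint.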

How the data were processed

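Single-cell RNA from Seq-Well libraries of CIA and healthy DBA1/J mice was used, as deposited by the authors: whole-number transcript (UMI) sums that they had smoothed over the 12 nearest neighbours of each barcode, here treated as signal and not as counts, so that no count model applied. Per the labels, bcl2fastq, Picard and STAR were used. The labels name the builds GRCh38 and mm9 and the study's methods GRCm38, so the build of the deposited values could not be settled and gene symbols alone were matched. The normalization of the deposited signal is none beyond the smoothing.

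Members were columns with at least 1% of Col1a1, Col1a2 and Col3a1. Their signal was summed per library and scaled to a total of 1000000 (UPM), then compared as log2(UPM + 25) for genes averaging 50 UPM or more, the rule genes left out. Past 2-fold was the call. With 1 mouse per organ and state, and columns that share smoothed signal, no p-value was computed, nor could the spread between mice be estimated. A library entered with 10 or more members. Named were the 10 genes per direction with the largest ratios in each comparison, in joint only if past 2-fold against H3 in each CIA library, for an organ those 2-fold above every other organ in S1 and again among healthy mice, and any gene of 26 fixed fibroblast lists, beside 13 marker lists of other cell types. The members and lists were chosen with earlier results of these data known. Genes shown only within column groups or profiles were picked after their values were seen. For its main analysis the study describes removing barcodes with very many transcripts and genes found in few cells, and whether these tables passed those steps is not given in the sources used here. No doublet caller was run on the smoothed signal, so columns with RNA of several cell types may hold more than 1 cell. Scripts were tested on simulated data. Exact 95% intervals (Clopper-Pearson) cover counting error over columns only, as if columns were independent, and a share of 0 allows 3 counts of the total. Python 3.11.15, numpy 2.4.6, scipy 1.17.1, pandas 2.3.3 and matplotlib 3.10.9 were used. Alternatives changed the member threshold, smoothing copies, scale, pseudocount, filter and libraries.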

Additional observations from a re-analysis of the deposited data

Results flagged for a closer look

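Some genes of the fixed lists lay past 2-fold in opposite directions between CIA and healthy members of the joint and of the skin. The values below are log2 ratios of the larger CIA joint library over the healthy joint, followed by CIA over healthy skin. Dcn stood at -2.02 and 1.58. Fbln1, fibulin 1, an elastic-fibre protein, stood at -1.80 and 2.48, and Gpc3, a cell-surface glypican, at -1.85 and 1.62. Pcolce2, an enhancer of procollagen cleavage, had -1.71 and 1.58, and Osr2, a transcription factor of joints and tendon, -1.12 and 1.66. Csf1, the macrophage growth factor, had -1.16 and 1.53, and C1ra -1.38 and 2.37. Hmgb2, a chromatin protein of dividing cells, lay the other way, at 2.83 and -1.38. With the trimmed mean Osr2, Csf1 and C1ra were no longer past 2-fold in joint, at -0.76, -0.75 and -0.87, and the other 5 genes stayed past it in both organs. In the smaller CIA joint library Fbln1, Gpc3, Pcolce2, Osr2 and C1ra were listed at 0. The difference between the organs was not tested, as each ratio compares 1 library with 1 library, and state cannot be told apart from title suffix in skin. Healthy skin members also carried less collagen than CIA skin members, with median shares of 1.17% and 5.11%, and its part in these ratios was not tested.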

How the results depend on the processing

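With 1 mouse per organ and state the spread between mice is unknown, the smoothed signal hides the number of independent transcripts, and levels near 1 unit cannot be ranked. Of 840 recomputed log2 ratios of the genes ranked highest or lowest in a comparison, 835 stayed past 2-fold and none changed direction. These genes were picked for their large ratios in the same libraries, so this result was nearly fixed in advance. In joint a named gene had to pass 2-fold in each CIA library, so leaving out 1 of them could not undo its call. Other genes of the lists were not recomputed gene by gene, apart from those with opposite directions in joint and skin. Counts of genes past 2-fold followed the settings. The 343 members became 216 with a 2% threshold, 114 with 5% and 107 with each distinct profile once. The 2% threshold moved the joint counts from 1366 to 2060 for the summed CIA libraries and from 675 to 1195 for both CIA libraries at once. A pseudocount of 100 UPM gave 633 and 254 there, 1124 for skin (main 1806), 701 for joint over skin in S1 (1520), 1254 among healthy mice (1990) and 1471 for muscle over joint (2266). A mean of 200 UPM gave, in the same order, 266, 110, 354, 308, 435 and 426, with 468 for muscle over skin (2458) and 423 between the S1 joint libraries (1622). No filter gave 3583, 1474, 4710, 4142, 4376, 5257, 6012 and 4753. With the trimmed mean muscle over joint gave 1441. Leaving out 1 CIA joint library gave 1396 to 1864. The summed CIA joint split, 429 higher and 937 lower, became 1079 and 646 with the trimmed mean, and muscle over skin, 1404 and 1054, became 1030 and 1203. Member thresholds of 5% for joint and of 2% and 5% for skin, healthy joint over skin and muscle left too few members and were not run. The cause of these changes was not tested. No paired analysis was possible because the results come from no test and each group held 1 mouse.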

Other observations

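Several fixed lists beyond those of the comparisons above were also counted, in the larger CIA over the healthy joint, the smaller CIA over the healthy joint and CIA over healthy skin, with the same 2-fold call and no test. Over all genes compared, 13% were higher and 27.2% lower in the first, 27.6% and 33.9% in the second and 24.7% and 24.9% in the third. Growth factor genes and WNT or BMP modulators gave other counts in skin than in joint, a difference that was not tested. Insulin-like growth factor genes had 6 of 8 higher and 1 lower (median 1.35) in skin, 1 of 6 higher and 2 lower (median -0.17) in the larger joint library, where the median turned to 0.38 with the trimmed mean, and 1 of 6 higher and 2 lower (median -0.12) in the smaller one. Igf1, the growth factor itself, was at 888 UPM in the healthy joint, 591 in the larger and 947 in the smaller CIA library and at 85.0 UPM in healthy and 259.5 UPM in CIA skin, while Igfbp6, a binding protein with preference for IGF2, was at 2979.5 UPM in the healthy joint, 819 in the larger and 492 in the smaller CIA library. Igfbp4, another binding protein, was at 58.6 UPM in the healthy joint, 408 in the larger and 788 in the smaller CIA library, and was listed at 0 in healthy skin. WNT and BMP modulators had 4 of 7 higher and 0 lower (median 2.49) in the larger joint library, where 17 of the 20 in the table were listed at 0 in the healthy joint, so that most compared genes passed the level filter through the CIA library and the count gives no direction. They had 2 of 6 higher and 3 lower (median -0.59) in skin, and only 1 gene of the list was compared in the smaller joint library. The WNT inhibitors Sfrp2 and Wif1 were at 97.2 UPM in healthy and 528 UPM in CIA skin and at 115 UPM in healthy and 238 UPM in CIA skin, and at 0 in both the healthy and the smaller CIA joint.

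Small leucine-rich proteoglycans, which order collagen fibrils, had 4 of 10 higher and 4 lower (median 0.77), or 6 and 2 of 10 with the trimmed mean, in the larger joint library, 1 of 7 higher and 4 lower (median -1.51) in the smaller and 3 of 4 higher and 0 lower (median 1.89) in skin. Genes of the secretory pathway and its chaperones had 5 of 22 higher and 1 lower (median 0.58), 5 of 21 higher and 6 lower (median -0.17) and 2 of 21 higher and 1 lower (median 0.12) in that order. With the trimmed mean the larger joint library had 13 higher and 0 lower of 22 (median 1.11), and the skin median turned to -0.12 with the trimmed mean. P4hb, a subunit of the collagen prolyl hydroxylase, was at 115 UPM in the healthy joint, 385 in the larger and 152 in the smaller CIA library and at 134 UPM in healthy and 353 UPM in CIA skin. Glycolysis and hypoxia genes had 3 of 10 higher and 1 lower (median 0.71), 2 of 7 higher and 4 lower (median -1.13) and 3 of 10 higher and 2 lower (median 0.53), and 6 higher and 0 lower of 10 with the trimmed mean in the first. Of the lining fibroblast list 6, 4 and 6 genes were compared, with medians of 0.11, 0.53 and 0.96. Has1 was at 56.2 UPM in the healthy joint, 164 in the larger and 0 in the smaller CIA library and at 206 UPM in healthy and 538 UPM in CIA skin. Bone genes had 3 of 3 higher and 0 lower (median 2.73) in the larger joint library. In the smaller they had 0 of 1 higher and 1 lower (median -4.28). Of the 13 bone genes, 11 were listed at 0 in the healthy joint and 12 in the smaller CIA joint library. Lung fibroblast genes had 1 of 5 higher and 3 lower (median -1.54) in the larger joint library. They had 1 of 5 higher and 3 lower (median -3.21) in the smaller, and 3 of 3 higher and 0 lower (median 2.59) in skin. Of the 15 lung fibroblast genes, 12 were listed at 0 in healthy skin and 13 in the smaller CIA joint library. A gene at 0 in the healthy library could pass the level filter only through the CIA library. Both counts of 3 of 3 therefore give no direction. Immediate early and stress genes had 4 of 26 higher and 2 lower (median -0.35) in the larger joint library, where the median turned to 0.20 with the trimmed mean, 6 of 26 higher and 6 lower (median -0.17) in the smaller and 11 of 26 higher and 3 lower (median 0.67) in skin. Cell-cycle genes had 1 of 5 higher and 1 lower (median 0.57), 2 of 6 higher and 1 lower (median 0.19) and 1 of 4 higher and 2 lower (median -0.72), where the median for the smaller joint library turned to -0.55 with the trimmed mean. Mki67, a marker of dividing cells, was at 44.5 UPM in the healthy joint, 29.2 in the larger and 195 in the smaller CIA library.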
